A study of Mus musculus with 9 samples.

Results

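A set of 9 liver enzymes that start or carry the breakdown of amino acids was followed in c57Bl/6 mice given a high-fat diet or a control diet. The enzymes are encoded by Tat, Hpd and Hgd (tyrosine), Tdo2 (tryptophan), Hal (histidine), Oat (ornithine), Got1 (aspartate), Gpt (alanine) and Agxt (alanine and glyoxylate). They were taken as a named list of 9 genes, by the gene symbol that the platform annotation gives, and all 9 were measured by 13 probe sets, out of 17514 named genes and 41782 probe sets. Total RNA of whole liver was hybridised to Affymetrix GeneChip arrays. The HFD group had 5 arrays from mice whose diet held 21% fat, which supplied 42% of the calories. The control group had 4 arrays from mice labelled as on the control diet, whose composition the labels do not give, and chow was given to all mice until the study. Sex, age and time on diet are not in the labels. Nor is it stated whether every array came from its own animal, and the p-values therefore reflect the scatter among these arrays, part of which may be technical.

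The liver is the main site where most amino acids lose their nitrogen. An aminotransferase moves the amino group to a keto acid with pyridoxal phosphate as cofactor, as Tat, Oat, Got1, Gpt and Agxt do, whereas Tdo2 and Hgd open rings with oxygen, Hpd is also an oxygenase, and Hal removes ammonia directly. The carbon skeletons then feed glucose synthesis, ketone bodies or the citric acid cycle. Several of these genes, Tat and Tdo2 above all, are textbook examples of liver genes induced by glucocorticoids and glucagon. Got1 and Gpt encode the enzymes measured in blood as AST and ALT.

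The authors set each probe set to 0 at its median over their samples, and the values below are on that log2 scale, so that arrays can be compared within a probe set while levels of different probe sets or genes cannot. Differences are HFD minus control in log2 units, each with its standard error (SE) from the fit. A probe set was called where the limma adjusted p, taken over all 41782 probe sets, was under 0.05. Replicate numbers only name the arrays.

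The breakdown enzymes moved both ways with the diet. Got1 and Agxt fell in the HFD group, and Hgd and Gpt rose in 1 of their 2 probe sets each. In all, 2 of the 13 probe sets were called higher and 2 lower, beside 2.04% of all probe sets called higher and 1.23% called lower (3.26% in either direction). The other 9 probe sets were not past the threshold. Before adjustment 11 of the 13 had a limma p under 0.05, beside 16.4% of all probe sets. The median absolute difference was 0.48 over the 13 probe sets, against 0.10 over all probe sets, and their median signed difference was 0.018, against -0.0078 over all probe sets. In 3 of the 13 the HFD and control arrays were fully separate, beside 8.0% of all probe sets. The values over all probe sets were taken with no filter on signal, and may include probe sets without signal in liver. The 9 members were chosen with earlier results of these data known. Whether they differ more than other liver genes was not tested.

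**Figure D1:**
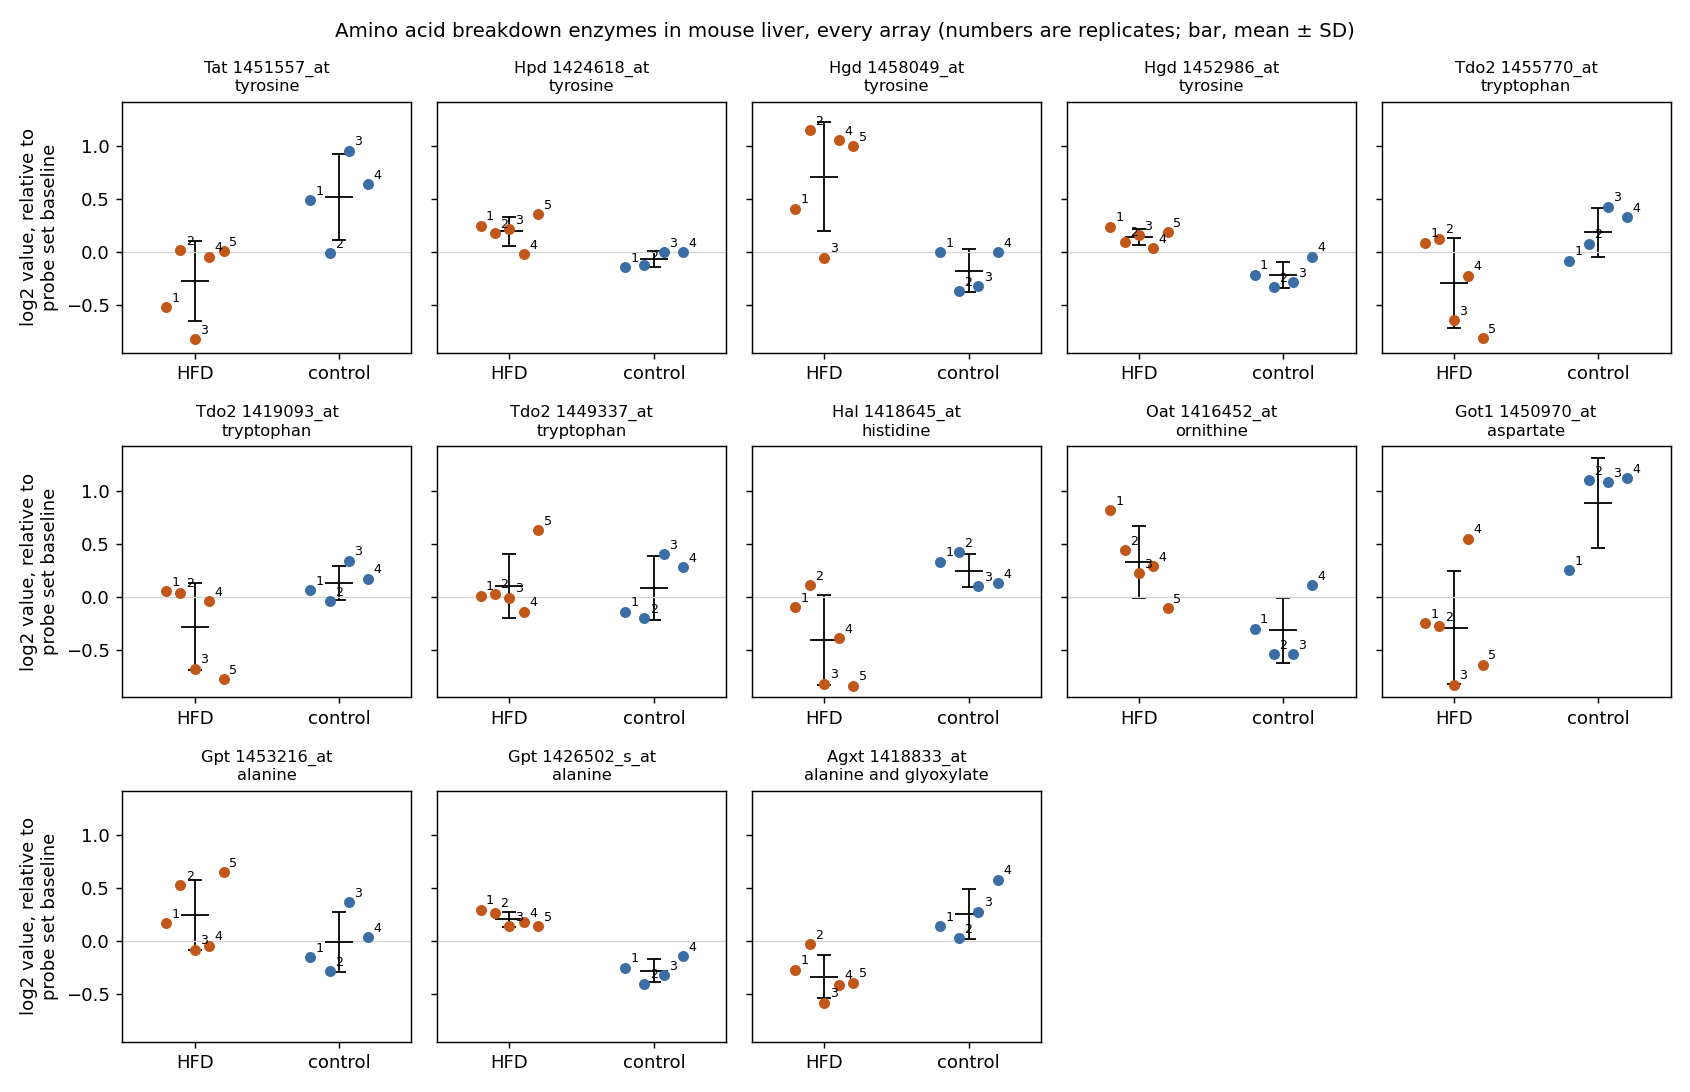
Log2 value of each of the 13 probe sets (vertical axis, relative to the baseline of the probe set) in every HFD and control array, with the mean and SD of each group as a bar. The groups are separate in Hgd 1452986_at, Gpt 1426502_s_at and Agxt, and in Got1 HFD replicate 4 lies above control replicate 1.

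Of the 9 genes, each taken by its most variable probe set over the 9 arrays, 4 had a positive and 5 a negative difference, and 2 (Got1 and Agxt) were called, both lower. Among all genes taken in this way, 1.65% were called lower and 3.09% higher (4.74% in either direction). Before adjustment 8 of the 9 genes had a limma p under 0.05, beside 20.2% of all genes.

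**Figure D2:**
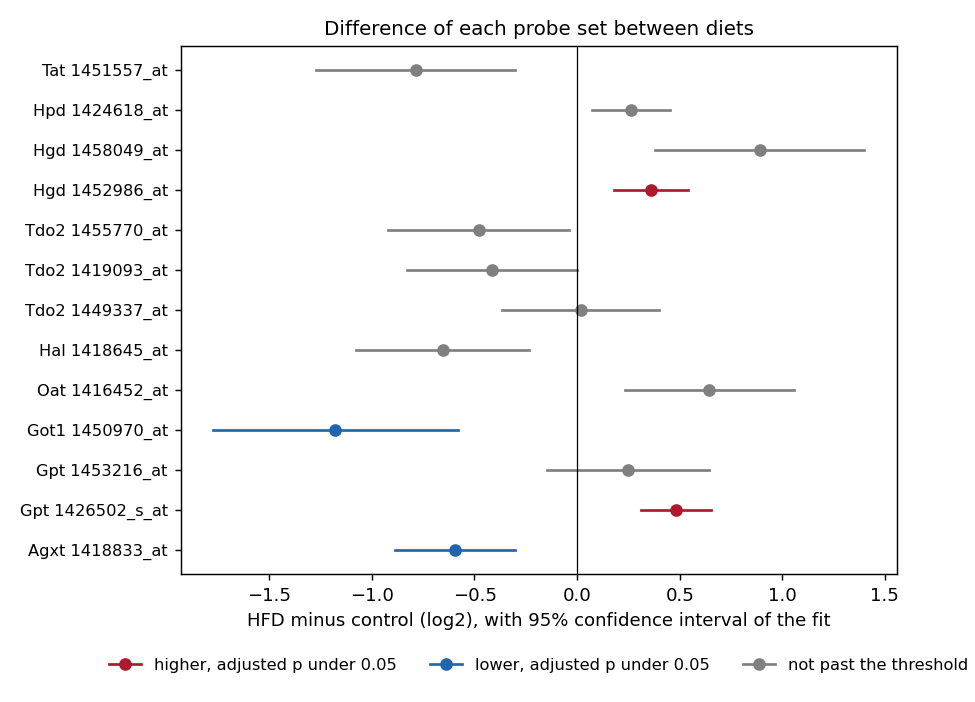
Difference HFD minus control (horizontal axis, log2) of each of the 13 probe sets with the 95% confidence interval of the fit, red where called higher, blue where called lower and grey where not past the threshold. Got1 has the lowest difference at -1.18 and Hgd 1458049_at the highest at 0.89, with a wide interval.

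Got1, the cytosolic aspartate aminotransferase of the malate-aspartate shuttle, had the largest difference of the 9 genes. Its values were -0.25, -0.28, -0.83, 0.55 and -0.64 in HFD replicates 1 to 5, against 0.25, 1.10, 1.08 and 1.12 in control replicates 1 to 4. All HFD arrays but replicate 4 lay below every control array, and control replicate 1 stood well under the other controls. Got1 fell by 1.18 ± 0.27 on the log2 scale (2.26-fold, adjusted p = 0.0424), with means of -0.29 ± 0.53 in HFD (SD, n = 5) and 0.89 ± 0.43 in control (SD, n = 4). The call held without HFD replicate 4 (adjusted p = 0.00973) or control replicate 1 (adjusted p = 0.0271), the arrays that made the groups overlap. Without HFD replicate 1, 2, 3 or 5 or control replicate 2, 3 or 4 it was lost, at limma adjusted p-values of 0.0713 to 0.132. The difference stayed between -1.39 and -1.04 whichever of the 9 arrays was left out.

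Alanine is handled by Gpt, which passes its amino group to 2-oxoglutarate, and by Agxt, which passes it to glyoxylate in peroxisomes and so removes a precursor of oxalate. Agxt stood at -0.27, -0.03, -0.58, -0.41 and -0.39 in HFD replicates 1 to 5, against 0.14, 0.03, 0.28 and 0.58 in control replicates 1 to 4. All HFD arrays lay below all control arrays, with HFD replicate 2 and control replicate 2 nearly touching. Agxt fell by 0.59 ± 0.13 (1.51-fold, adjusted p = 0.0385). Leaving out HFD replicate 2 kept this call (adjusted p = 0.0256), and leaving out any other array ended it, at limma adjusted p-values of 0.0550 to 0.106 and differences of -0.67 to -0.49.

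Gpt was read by 2 probe sets that both had positive differences. Probe set 1426502_s_at, whose suffix marks probes shared by several transcripts, gave 0.30, 0.27, 0.14, 0.18 and 0.14 in HFD replicates 1 to 5, against -0.25, -0.40, -0.32 and -0.14 in control replicates 1 to 4. The groups were separate, and the spread within each was small beside the gap. By this probe set Gpt rose by 0.48 ± 0.08 (1.40-fold, adjusted p = 0.00910). This was the only call among the 13 probe sets that held when any 1 of the 9 arrays was left out, with adjusted p-values of 0.0132 to 0.0385. Probe set 1453216_at gave 0.17, 0.53, -0.08, -0.04 and 0.65 in HFD replicates 1 to 5, against -0.15, -0.28, 0.37 and 0.04 in control replicates 1 to 4. Here the arrays of the groups were mixed, and the difference of 0.25 ± 0.18 was not past the threshold (adjusted p = 0.545). With both probe sets of Gpt averaged the difference was 0.37, also not past it (adjusted p = 0.0729).

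Within an array, Agxt minus Gpt (1453216_at, the more variable probe set) ranged from -1.04 to -0.37 in HFD and from -0.09 to 0.54 in control. The pair was set after the values were seen, with Agxt already separate between the diets, and its values are a description with no test.

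**Figure D3:**
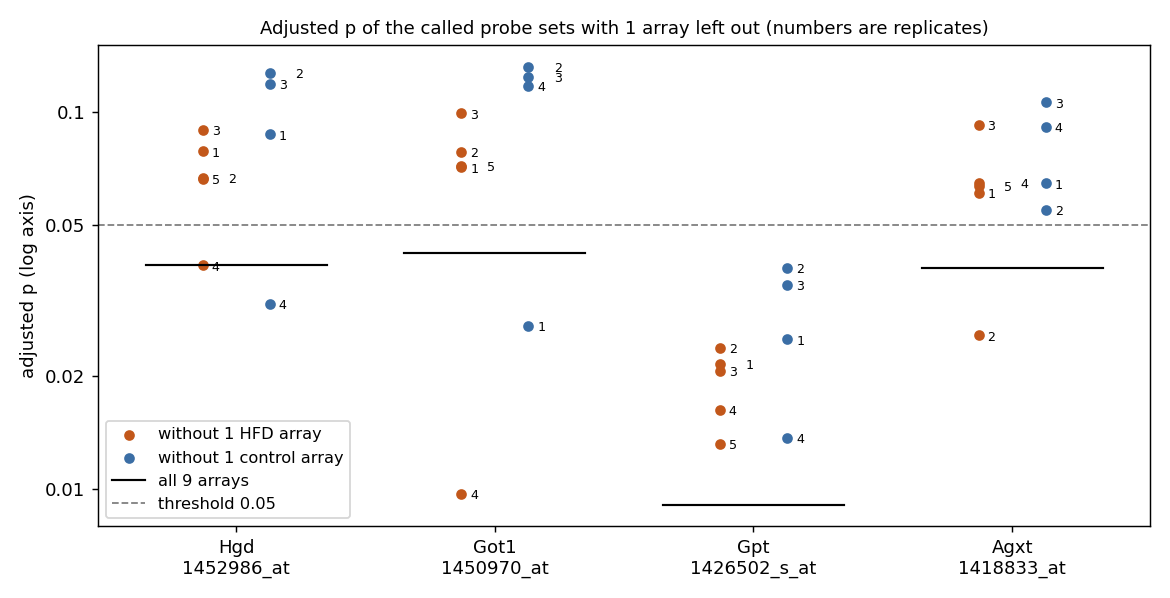
Adjusted p (vertical log axis) of the 4 called probe sets with all 9 arrays (black line) and with 1 HFD or 1 control array left out (points, numbered by replicate), beside the threshold of 0.05. All points of Gpt 1426502_s_at lie under the threshold, and most points of Hgd, Got1 and Agxt lie above it.

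Tyrosine breakdown starts with Tat, which makes 4-hydroxyphenylpyruvate, goes on with Hpd, which makes homogentisate, and then Hgd, which opens its ring. Tat stood at -0.52, 0.02, -0.82, -0.04 and 0.01 in HFD replicates 1 to 5, against 0.49, -0.01, 0.96 and 0.64 in control replicates 1 to 4. Control replicate 2 lay among the HFD arrays, and the other controls lay above all of them. The difference of -0.79 ± 0.22 was not past the threshold (adjusted p = 0.0868, with a 95% confidence interval of -1.27 to -0.30).

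The enzymes after Tat had differences of the opposite sign. Hpd stood at 0.25, 0.18, 0.22, -0.02 and 0.36 in HFD replicates 1 to 5, against -0.14, -0.12, 0.00 and 0.00 in control replicates 1 to 4. All HFD arrays but replicate 4 were above every control, and the difference of 0.26 ± 0.09 was not past the threshold (adjusted p = 0.144). For Hgd, probe set 1452986_at gave 0.24, 0.10, 0.16, 0.04 and 0.19 in HFD replicates 1 to 5, against -0.21, -0.33, -0.28 and -0.04 in control replicates 1 to 4. The groups did not overlap, and by this probe set Hgd rose by 0.36 ± 0.08 (1.28-fold, adjusted p = 0.0392). The call held without HFD replicate 4 (adjusted p = 0.0391) or control replicate 4 (adjusted p = 0.0310), and ended without HFD replicate 1, 2, 3 or 5 or control replicate 1, 2 or 3, at limma adjusted p-values of 0.0665 to 0.127.

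The other Hgd probe set, 1458049_at, spread more widely, with 0.41, 1.15, -0.05, 1.06 and 1.00 in HFD replicates 1 to 5, against 0.00, -0.37, -0.32 and 0.00 in control replicates 1 to 4. HFD replicate 3 lay among the controls and the other HFD arrays above them. Its difference of 0.89 ± 0.23 was not past the threshold (adjusted p = 0.0673). It was past it without HFD replicate 3 (1.08, adjusted p = 0.0153) and with both probe sets of Hgd averaged (0.63, adjusted p = 0.0167). With any other array left out 1458049_at was not past it, at limma adjusted p-values of 0.0716 to 0.189.

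Set against each other within an array, Tat minus Hgd (1458049_at) ranged from -1.13 to -0.77 in HFD and from 0.36 to 1.28 in control. Tat minus Hpd ranged from -1.03 to -0.02 in HFD and from 0.11 to 0.96 in control. Hpd minus Hgd ranged from -1.08 to 0.26 in HFD and from -0.14 to 0.32 in control. These pairs too were set after the signs of their members were known, and no test was made of them. Here again the signs do not rank the genes, and only the shift between the diets can be read.

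Tdo2, the dioxygenase that opens the indole ring of tryptophan, had 3 probe sets that did not pass. Probe set 1455770_at gave 0.09, 0.13, -0.64, -0.22 and -0.81 in HFD replicates 1 to 5, against -0.08, 0.08, 0.43 and 0.33 in control replicates 1 to 4. HFD replicates 3 and 5 were the low arrays, and HFD replicates 1 and 2 lay among the controls. Its difference was -0.48 ± 0.20 (adjusted p = 0.260). Probe set 1419093_at had the same low arrays, -0.68 in HFD replicate 3 and -0.78 in HFD replicate 5, and a difference of -0.42 ± 0.19 (adjusted p = 0.302). Probe set 1449337_at differed by 0.018 ± 0.17 (adjusted p = 0.976), and in it HFD replicate 5 was the highest of all arrays, at 0.63. The probe sets of Tdo2 therefore gave opposite orders for that array, and none of the 3 was called in either direction.

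Hal, the histidine ammonia-lyase that makes urocanate, stood at -0.10, 0.11, -0.82, -0.39 and -0.84 in HFD replicates 1 to 5, against 0.33, 0.42, 0.10 and 0.13 in control replicates 1 to 4. All HFD arrays but replicate 2 lay below every control, and HFD replicates 3 and 5 were again the lowest. The difference of -0.66 ± 0.19 was not past the threshold (adjusted p = 0.101). It was past it without HFD replicate 2 (-0.78, adjusted p = 0.0413), the HFD array that reached the controls. With any other array left out Hal was not past it, at limma adjusted p-values of 0.0878 to 0.254.

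Oat, the mitochondrial ornithine aminotransferase that turns ornithine towards glutamate and proline, stood at 0.82, 0.44, 0.22, 0.29 and -0.11 in HFD replicates 1 to 5, against -0.30, -0.54, -0.54 and 0.11 in control replicates 1 to 4. All HFD arrays but replicate 5 were above every control. The difference of 0.65 ± 0.19 was not past the threshold (adjusted p = 0.0974). It was past it with array weights (0.77, adjusted p = 0.0333) and without HFD replicate 5 (0.76, adjusted p = 0.0433), the HFD array that lay among the controls. With any other array left out Oat was not past it, at limma adjusted p-values of 0.0614 to 0.254.

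HFD replicate 3 was the lowest HFD array in Tat, Got1 and Agxt, and also in Hgd 1458049_at and Gpt 1453216_at, which had positive differences. HFD replicate 5 was the lowest in Tdo2 (1455770_at and 1419093_at), Hal and Oat. It was the highest HFD array in Hpd (0.36), Gpt 1453216_at (0.65) and Tdo2 1449337_at (0.63). Over all probe sets these arrays had the largest standard deviations, 0.267 for HFD replicate 3 and 0.335 for HFD replicate 5, against 0.221 to 0.245 in the other 7 arrays. The adjusted p of each called probe set without them is in the plot of adjusted p with 1 array left out.

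The promoters of Got1 and Agxt, the genes that fell, and of Hgd, which rose in 1 probe set, are shown to set their sequences beside these directions. Of the 9 members 8 matched an entry of RefSeq (GRCm38.p6), all but Gpt, and each entry covers 250 bases before and 50 after the start of the gene. The motifs searched were CCAAT, the box bound by NF-Y (ATTGG on the other strand), AGAACA, a half-site of the glucocorticoid response element (TGTTCT on the other strand), and TGACG, a half-site of the cyclic AMP response element (CGTCA on the other strand). Capitals mark matches to CCAAT or AGAACA on either strand, and the sequences run 5′ to 3′ on the strand of the gene.
Got1: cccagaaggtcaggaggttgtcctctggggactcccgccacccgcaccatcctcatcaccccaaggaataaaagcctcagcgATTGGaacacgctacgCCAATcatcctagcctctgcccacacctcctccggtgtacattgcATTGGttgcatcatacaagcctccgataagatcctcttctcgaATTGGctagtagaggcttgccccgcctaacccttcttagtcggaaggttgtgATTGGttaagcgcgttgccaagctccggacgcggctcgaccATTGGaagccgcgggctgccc
Agxt: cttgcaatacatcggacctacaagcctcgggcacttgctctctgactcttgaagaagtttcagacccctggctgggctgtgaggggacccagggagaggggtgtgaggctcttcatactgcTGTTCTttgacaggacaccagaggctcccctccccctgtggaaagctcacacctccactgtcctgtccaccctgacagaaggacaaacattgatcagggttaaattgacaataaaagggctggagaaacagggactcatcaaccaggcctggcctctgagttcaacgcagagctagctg
Hgd: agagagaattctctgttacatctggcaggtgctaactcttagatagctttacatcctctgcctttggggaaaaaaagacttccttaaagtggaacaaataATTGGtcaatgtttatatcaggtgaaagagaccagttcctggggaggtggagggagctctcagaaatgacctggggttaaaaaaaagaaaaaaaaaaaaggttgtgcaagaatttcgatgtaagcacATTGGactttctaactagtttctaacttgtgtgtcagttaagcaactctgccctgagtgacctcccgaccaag
The Got1 window, at chr19:43524556-43524855 on the minus strand, held 6 matches to CCAAT or its complement, a number that 0.0791% of the 32851 promoters of this length reach, whereas 37.4% hold at least 1. This is the smallest share among all the members and motifs searched. The Hgd window, at chr16:37579903-37580202 on the plus strand, held 2 matches to CCAAT or its complement, a number that 11.7% of promoters reach. The Agxt window, at chr1:93134990-93135289 on the plus strand, held none of these and 1 match to AGAACA, which 19.0% of promoters hold. TGACG was in none of these windows, and 20.8% of promoters hold it. Among the other members Tat had 3 matches to CCAAT (a number 3.37% of promoters reach), Oat 2 (11.7%), and Tdo2 and Hal 1 each, Hpd had none, and Oat alone held TGACG. These letters describe the windows and are not shown here to be bound.

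For the called genes, the genes of closest pattern had the smallest root mean square difference of their 9 values, out of all others with 1 probe set each. Their similar differences between the diets follow from this choice and are a description only. For Got1 these were Acsl4 (0.29), Rasd1 (0.30) and Snhg1 (0.30 on the log2 scale), which fell by 1.31 ± 0.21, 0.85 ± 0.20 and 1.00 ± 0.18. For Agxt they were Inpp5d (0.14), Gsta4 (0.18) and Rnase4 (0.18), with differences of -0.43 ± 0.12, -0.54 ± 0.14 and -0.56 ± 0.14 that were not past the threshold.

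Among the other genes of amino acid breakdown, those that passed were mostly higher in HFD; whether they differ in this from the 9 enzymes was not tested. Of 64 measured genes on 8 lists by amino acid, 12 rose (18.8%) and 1 fell (1.56%), beside 3.09% and 1.65% of all genes. Of the 64 differences 43 were positive and 21 negative, with a median of 0.12, against -0.02 over all 17514 genes. In 18 of the 64 (28.1%) the groups did not overlap, beside 9.82% of all genes, and 17 of these 18 were higher in HFD. The count of 12 became 7 without HFD replicate 2, 5 without HFD replicate 3, 6 without control replicate 1, 4 without control replicate 2, 6 without control replicate 3 and 7 without control replicate 4.

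Genes of the tyrosine and phenylalanine list and of the histidine list were among those that rose. Fah, which splits fumarylacetoacetate at the end of tyrosine breakdown, rose by 0.30 ± 0.07 (adjusted p = 0.0395), and Pcbd1, which recycles the cofactor of phenylalanine hydroxylase, rose by 0.35 ± 0.07 (adjusted p = 0.0188). These were 2 of the 4 measured genes of the tyrosine and phenylalanine list, and none was called lower. The others were not past the threshold, Gstz1 at 0.28 ± 0.12 (adjusted p = 0.267) and Qdpr at -0.24 ± 0.14 (adjusted p = 0.438). With 1 array left out, Fah was past the threshold only without HFD replicate 4, and Pcbd1 was not past it without control replicate 2 or 3. Uroc1, the urocanase that takes over the product of Hal, rose by 0.66 ± 0.13 (adjusted p = 0.0232), and lay from 0.00 to 0.54 over HFD arrays, against -0.64 to -0.23 over control arrays. This call was lost without HFD replicate 3, control replicate 1 or control replicate 2 (adjusted p = 0.0557 to 0.0747). Uroc1 was 1 of 3 measured genes of the histidine list. Ftcd, which takes formimino groups from histidine to folate, differed by 0.35 ± 0.08 without passing (adjusted p = 0.0537) and is named here with its value already seen. Amdhd1, the remaining gene of that list, differed by 0.03 ± 0.10 (adjusted p = 0.917).

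In the tryptophan list 1 of 9 measured genes fell and none rose, with 3 positive and 6 negative differences. Haao differed by 0.30 ± 0.08 with separate groups, not past the threshold (adjusted p = 0.0568). It was past it in the fit with probe sets averaged (adjusted p = 0.0268), and is named here with its value already seen. Kyat1, a kynurenine aminotransferase, fell by 0.80 ± 0.14 (adjusted p = 0.0130), with a negative difference in 3 of its 4 probe sets and an average over the 4 of -0.51, and the call was lost without control replicate 2 (adjusted p = 0.0511). No gene of the arginine, proline and hydroxyproline list was called among 7, and Prodh, the proline dehydrogenase, came nearest (0.61 ± 0.16, adjusted p = 0.0669).

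Of 6 measured genes of the aspartate, glutamate and alanine list only Asrgl1, an asparaginase-like enzyme, was called, and it rose by 0.70 ± 0.12 (adjusted p = 0.0126). Sardh, the sarcosine dehydrogenase, rose by 0.52 ± 0.09, 1 of 8 measured genes of serine, glycine and threonine breakdown. Dhtkd1, a subunit of the 2-oxoadipate dehydrogenase of lysine breakdown, rose by 0.85 ± 0.17, 1 of 5 in its list. The calls of Asrgl1 and Sardh held without any 1 array, and that of Dhtkd1 was lost without HFD replicate 2 or 3 or any 1 control array.

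In branched-chain amino acid breakdown, the longest of the 8 lists, 6 of 22 measured genes rose (27.3%) and none fell. Ppm1k, the phosphatase that activates the branched-chain keto acid dehydrogenase, rose by 1.06 ± 0.14 (adjusted p = 0.00422), and by 0.64 with its 2 probe sets averaged. Bckdha and Dbt, subunits of that dehydrogenase, rose by 0.36 ± 0.08 and 0.54 ± 0.11. Hsd17b10 (0.86 ± 0.13), Mccc1 (0.64 ± 0.14) and Hibadh (0.46 ± 0.09), enzymes of isoleucine, leucine and valine breakdown in that order, also rose. Ppm1k and Hsd17b10 held when any 1 of the 9 arrays was left out, whereas Hibadh held in 5 of these 9 fits (lost without HFD replicate 3 or control replicate 1, 2 or 3) and Bckdha, Dbt and Mccc1 in 2 each.

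**Figure D4:**
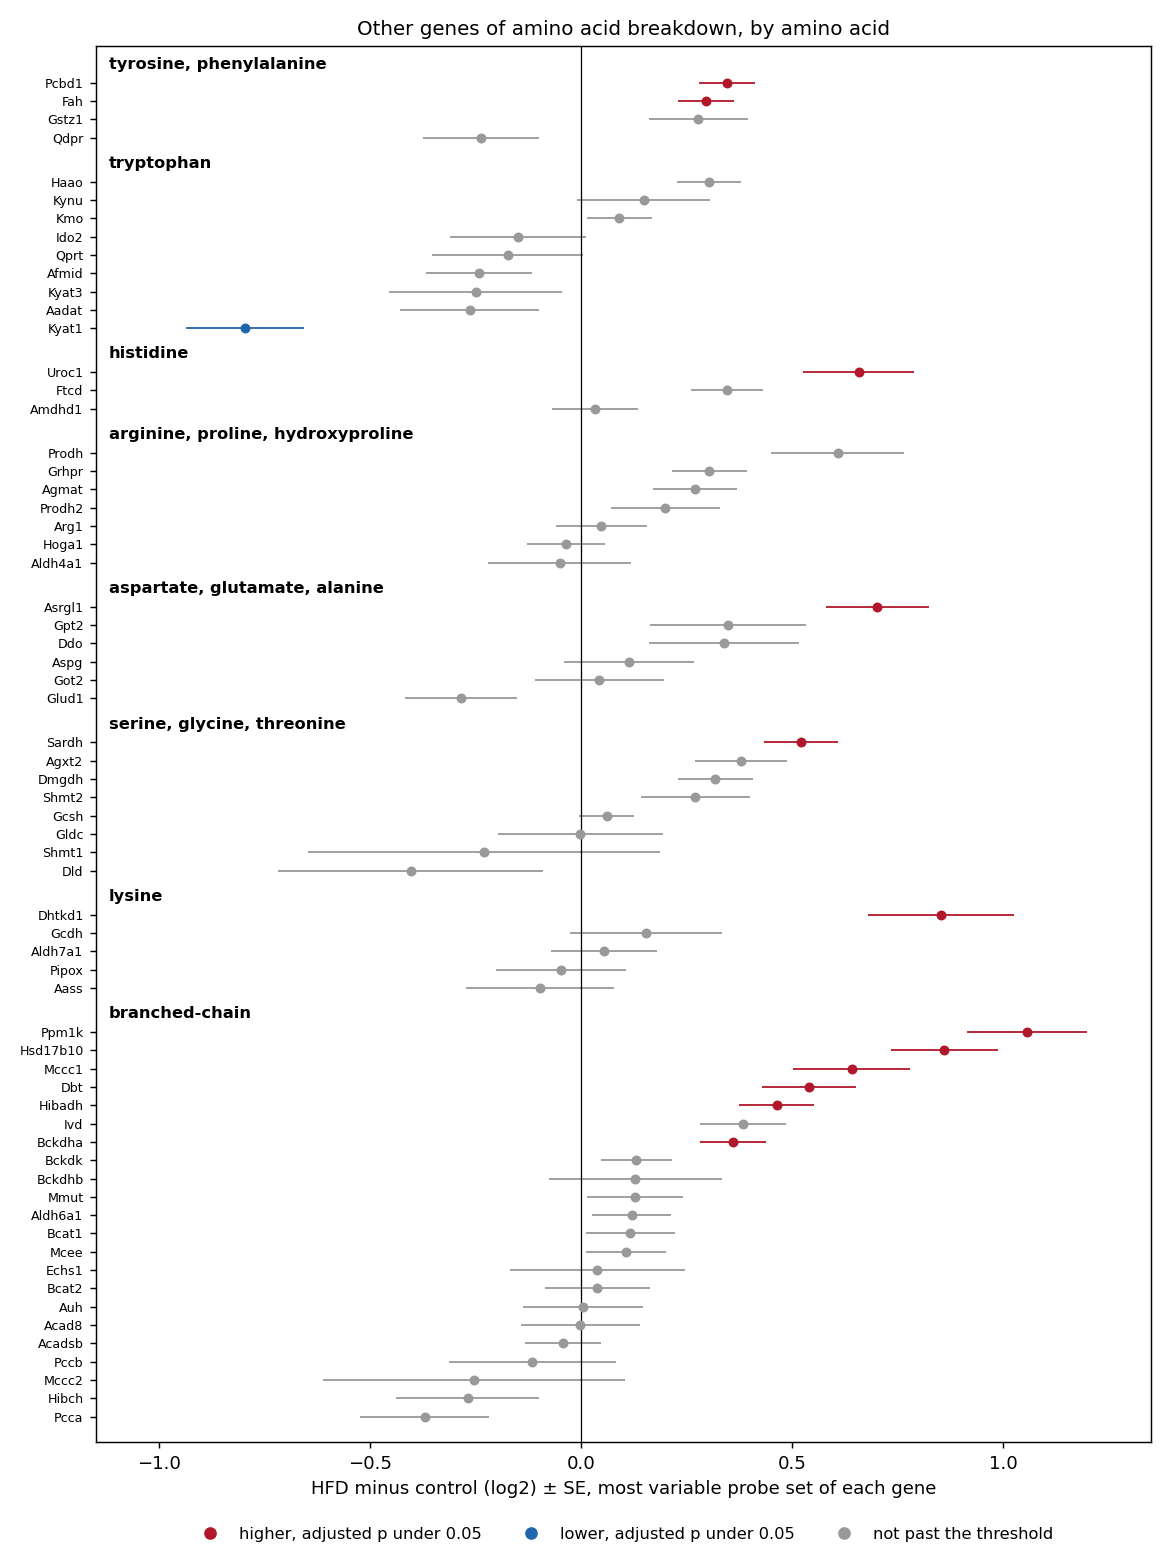
Difference HFD minus control (horizontal axis, log2, with the SE) of the 64 other genes of amino acid breakdown, by amino acid, red where called higher, blue where called lower and grey otherwise. The 12 called higher lie between 0.30 and 1.06, and Kyat1 is the gene called lower.

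Of 20 measured genes that regulate liver amino acid breakdown or respond to glucocorticoids, glucagon or fasting, 1 fell (5.0%) and none rose, a share near the 4.74% of all genes called in either direction. Hnf4a, which encodes a nuclear receptor of hepatocyte genes, fell by 0.91 ± 0.18 (adjusted p = 0.0248), and lay from -0.92 to 0.07 in HFD arrays, against 0.52 to 0.64 in control arrays. With its 4 probe sets averaged the difference was -0.52, still past the threshold, and the call was lost without HFD replicate 3 or any 1 control array, at limma adjusted p-values of 0.0570 to 0.0813. The median of the list was -0.28, and its mean per array ran from -0.90 to 0.27 in HFD, against -0.10 to 0.41 in control, with overlap.

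Cell type markers moved in the same comparison. Of 11 measured hepatocyte markers none was called, with Fgb, a fibrinogen chain, nearest (-0.37 ± 0.10, adjusted p = 0.0883), and their mean per array ran from -0.08 to 0.07 in HFD, against 0.03 to 0.11 in control. Their differences were negative in 9 and positive in 2, with a median of -0.07, against -0.02 over all genes. Of 13 measured Kupffer cell and macrophage markers 9 fell (69.2%) and none rose, beside 1.65% and 3.09% of all genes. Those with the lowest p were Timd4 (-1.16 ± 0.20), Folr2 (-1.25 ± 0.22), Lyz2 (-1.62 ± 0.30), Vsig4 (-1.89 ± 0.38), C1qc (-1.72 ± 0.37) and Csf1r (-1.17 ± 0.25). The mean of the 13 markers per array ran from -1.34 to 0.12 in HFD, against 0.16 to 1.36 in control. Of 10 endothelial markers 2 fell (20.0%), Fcgr2b and Stab1, and all 10 differences were negative, with a median of -1.04. Of 5 neutrophil markers 1 fell (20.0%), S100a9, and all 5 differences were negative. Of 8 stellate cell markers 1 rose (12.5%), Lrat, which was not past the threshold with its probe sets averaged (adjusted p = 0.0726). Of all these marker calls, those of Timd4 and Folr2 held without any 1 array. The count of markers that fell, 12 in all, was 5 without HFD replicate 2, 3 without HFD replicate 3, 23 without HFD replicate 4, 3 without control replicate 1, 2 without control replicate 2 and 2 without control replicate 3. None of the measured biliary (4), lymphocyte (5), adipose (3) or pancreatic acinar (4) markers was called, and those with the lowest p were Sox9 (-0.16 ± 0.11), Ms4a1 (-0.31 ± 0.12), Retn (0.14 ± 0.14) and Cela1 (-0.87 ± 0.29). Fewer cells of a type and less RNA per cell cannot be told apart in whole liver, and the part of these cells in the differences of the breakdown enzymes was not tested.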

How the data were processed

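The series' design text states that RMA was used by the authors, followed by quantile normalization and a shift of each probe set to the median over samples. The deposited values lie on both sides of 0 and were read as log2, the scale RMA returns. A log base is not given in the sources used here. For 92.8% of probe sets neighbouring values were mirror images about 0 (tolerance 1e-05), as a median over an even number of arrays would leave them, and 9 arrays were analysed here. No filter on signal was possible, since centring removes levels.

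Of 41842 probe sets 60 control probe sets were left out, and 32801 had 1 gene symbol, 862 several and 8119 none. The diets were compared with limma (version 3.58.1, R version 4.3.3; lmFit, eBayes, no trend, two-sided, Benjamini-Hochberg over all 41782 probe sets, threshold 0.05), with no covariate. No scan date or batch is given. A gene outside the 9 was read by its most variable probe set over the 9 arrays, a choice that favours larger differences. Exact permutation tests (Python 3.11.15) ran over all 126 splits of the arrays, as an alternative to limma.

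The 9 members and the gene lists were chosen with earlier results of these data known. Of the 166 listed genes 147 were measured, and the others are not analysed here. Named are every member with all its probe sets, the called genes of each list (at most 6 by lowest p, or else the nearest) and, for called members, the 3 genes of closest pattern. The pairs of enzymes were set after their values were seen and are described without a test. Alternatives were other scalings, gene summaries, variance models, thresholds and filters, and leaving out each array.

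The fit was checked on simulated data that kept the residual spread of each probe set, equal in every array. In these data 200 of 41782 probe sets were given a known change between HFD and control. The fit found 98.8% of those given 2 log2 units, 87.2% of those given 1 and 35.5% of those given 0.5. False ones made up 4.85% of its calls (mean of 5 simulations). Values were drawn independently, so arrays of unequal spread and probe sets that move together were not simulated. The share of false calls in the real arrays may therefore differ.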

Additional observations from a re-analysis of the deposited data

Results flagged for a closer look

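Each group of each of the 13 probe sets was searched for an array far from the others, 26 groups in all, by Dixon's test, which chance alone passes in about 1 of 20 groups. In 2 of them an array stood apart. Got1 was 0.25 in control replicate 1, with the other controls at 1.08 to 1.12, and without that array its difference was -1.39. Probe set 1449337_at of Tdo2 was 0.63 in HFD replicate 5, with the other HFD arrays at -0.14 to 0.03.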

How the results depend on the processing

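Over the 13 probe sets and 239 alternative values, 193 kept their direction and their side of the threshold. A call was lost in 29, the threshold was newly passed in 12, and the sign changed in 5. The 12 include the unadjusted exact p of Tat, Hpd, Hgd 1458049_at, Hal and Oat, which is not a call as defined above. All 29 losses were in the 4 called probe sets. They were 9 of 19 alternatives for Got1, 9 of 19 for Agxt, 10 of 17 for Hgd 1452986_at and 1 of 17 for Gpt 1426502_s_at. A probe set that was not called could not change sides at the stricter thresholds, so the 193 overstate how stable the calls were. The gains of Tat and Hpd came only from the unadjusted exact p. The changes of sign were all in Tdo2 1449337_at, whose difference of 0.018 became -0.037 after a further quantile normalization, -0.035 with array weights, and -0.11, -0.06 and -0.08 without HFD replicate 5, control replicate 1 or control replicate 2, in a range of -0.11 to 0.12 with 1 array left out. The count of probe sets called higher, 2 as reported, was 4 with array weights, where Hgd 1458049_at and Oat were added, 1 at an adjusted p under 0.01, 0 with a change of at least 1.5-fold besides, and 5 by the unadjusted exact permutation p, which added Hpd as well. The count called lower, 2 as reported, was 1 with robust eBayes, where Got1 was lost (adjusted p = 0.0573), 0 at an adjusted p under 0.01 and 4 by the exact p, which added Tat and Hal. The exact p is not adjusted and was computed for the members only. Counts by it have no share over all probe sets beside them and are not calls as defined above. With the least variable 25% of probe sets left out, Hgd 1452986_at was lost (adjusted p = 0.0595). By the most variable probe set of each gene, the count of 0 higher was 1 with probe sets averaged, 1 without the least variable probe sets, 2 with array weights and 3 by the exact p, and the count of 2 lower was 1 with robust eBayes, 0 at an adjusted p under 0.01 and 4 by the exact p. With 1 array left out these counts ran from 1 to 2 (probe sets higher), 0 to 2 (lower), 0 to 1 (genes higher) and 0 to 2 (lower). For the other breakdown genes the 12 higher became 2 and the 1 lower became 0 at an adjusted p under 0.01, and ran from 4 to 15 and from 0 to 1 with 1 array left out. The regulator list had 0 higher and 1 lower, 0 lower at an adjusted p under 0.01, and 0 to 1 higher and 0 to 2 lower with 1 array left out. Of the markers, the 1 higher became 0 with medians subtracted, probe sets averaged, robust eBayes, array weights or an adjusted p under 0.01, and the 12 lower became 20 without the least variable probe sets, 7 with robust eBayes and 0 at an adjusted p under 0.01, with 0 to 1 higher and 2 to 23 lower when 1 array was left out. The cause was not tested, other than that fewer arrays or probe sets entered where some were left out. No scaling moved the median of all probe sets by over 0.01. No paired analysis was possible because the replicate numbers follow the order of deposition and pair no arrays. The number of arrays limits the precision.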
